A study of Mus musculus with 6 samples.

Results

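Genes of the Hippo pathway were examined in cells that the study describes as mouse aortic smooth muscle cells and that had received an adenoviral vector. The members were the 10 rows of the deposited expression table whose symbol was Yap1, Wwtr1, Tead1, Tead2, Tead3, Tead4, Lats1, Lats2, Ankrd1 or Amotl2, out of 54532 genes. They were taken by name, and the list was made with earlier results of these data known. The 6 RNA-seq libraries comprised 3 labelled Ad-Con, whose cells were labelled wild type and received a vector with a control plasmid, and 3 labelled Ad-PDK4, whose vector was built to overexpress PDK4 and whose genotype label says the same. PDK4 (pyruvate dehydrogenase kinase 4) sits in mitochondria and restrains the entry of pyruvate into the tricarboxylic acid cycle. Per the study's methods, the cells came from abdominal aortas of wild-type mice, were grown for several passages and were starved of serum, and its results add that all of them then received angiotensin II, so the groups share these exposures. The labels mention neither the starvation nor angiotensin II, and cells without the vector or without angiotensin II were not analysed here. The study's figure legends count 3 biological replicates for this comparison. How many animals stood behind the cultures is not given in the sources used here, so the p-values measure the spread between these libraries.

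The Hippo pathway is a kinase cascade that holds a pair of transcriptional coactivators out of the nucleus. The kinases STK3 and STK4, with their scaffold SAV1, activate the LATS kinases, which phosphorylate YAP (encoded by Yap1) and TAZ (encoded by Wwtr1). The phosphorylated coactivators stay in the cytoplasm or are degraded. Unphosphorylated YAP and TAZ enter the nucleus and, having no DNA-binding domain of their own, act through the TEAD transcription factors. Targets of the complex include Ankrd1, Amotl2 and Lats2, the last 2 of which feed back to restrain YAP and TAZ. In smooth muscle the pathway is known for linking cell shape, matrix stiffness and contact to growth and phenotype. RNA-seq measures the transcripts of these genes and not the phosphorylation or location of the proteins.

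The values were FPKM (fragments scaled by gene length and library size, as the authors computed them), and every library held between 17588942 and 21861872 reads recovered from them. Pdk4, which checks the labels, was lower in the libraries labelled Ad-PDK4, at 7.48 ± 0.162 FPKM, than in those labelled Ad-Con, at 10.0 ± 0.469 (mean ± SD, n = 3). Directions are therefore those of the labels, and whether the gene's reads include any from the plasmid is not known. Of 9 smooth muscle markers, Acta2 took most of the summed level, at 78.0 ± 0.950 FPKM under Ad-Con and 36.2 ± 2.40 under the Ad-PDK4 label, and Smtn had 8.32 ± 0.114 and 8.44 ± 0.445 FPKM. Tagln, Cnn1, Mylk, Lmod1 and Des each stayed below 1 FPKM in every library, Myh11 had between 2 and 10 reads, and Myocd had at most 5. Most of these markers were thus scarce, the name of the cells is the study's, and their identity was not tested here. The summed level of these markers was 87.8 to 89.4 FPKM under Ad-Con and 43.3 to 48.2 under the Ad-PDK4 label. Markers of other cell types also moved with the groups. The 4 adventitial fibroblast markers summed to 204 to 243 FPKM under Ad-Con and 93.1 to 100 under the Ad-PDK4 label, mainly through Dpt, at 191.5 ± 20.03 and 74.1 ± 2.73 FPKM. Lum was lower as well, whereas Pdgfra had 20.5 ± 0.729 and 19.9 ± 0.804 FPKM (limma adjusted p = 0.54), and none of the 4 was at or below 3 reads in every library. Of 7 macrophage markers, 5 had at most 3 reads in every library, among them Ptprc, Tyrobp and C1qa, and the list's sum of 13.3 to 16.4 against 3.68 to 5.50 FPKM came mainly from Cd68. Csf1r went the other way, with 11, 23 and 35 reads under Ad-Con and 56, 62 and 61 under the Ad-PDK4 label. The 7 endothelial markers summed to 0.617 to 0.798 FPKM under Ad-Con and 0.885 to 1.18 under the Ad-PDK4 label. This came mainly from Kdr, at 0.536 ± 0.110 and 0.919 ± 0.199 FPKM (limma adjusted p = 0.065). The 4 cardiomyocyte markers summed to 0.363 to 0.577 FPKM under Ad-Con and 0.129 to 0.257 under the Ad-PDK4 label. Of 4 epithelial markers, Epcam had no reads, and the sum of 36.4 to 38.6 against 14.8 to 16.5 FPKM was mainly Krt18. In bulk RNA, fewer cells of a type and less RNA per cell cannot be told apart, and the part of these markers in the results that follow was not tested.

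All 10 members passed the filter of a mean FPKM of at least 0.5 and were among the 13423 genes tested by limma on log2(FPKM + 0.1), the scale of every log2 fold change given here. At a Benjamini-Hochberg adjusted p below 0.05, 6 members were called higher in the libraries labelled Ad-PDK4: Amotl2, Ankrd1, Tead4, Tead1, Lats2 and Tead3. Tead2 was called lower. Yap1, Wwtr1 and Lats1 did not pass. For comparison, 21.8% of all genes tested were called higher and 20.8% lower. This near balance moved with the scaling, from 3361 higher and 2430 lower under TPM to 2531 higher and 3132 lower under quantile normalization. With a fold of at least 2 required as well, Amotl2 and Ankrd1 remained, where the same rule called 3.95% of all genes higher and 2.68% lower. The groups did not overlap in 8 members, 7 of them higher and 1 lower, against 27.8% and 26.5% of all genes tested. The median log2 fold change was 0.58 over the members and -0.003 over all genes tested.

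**Figure D1:**
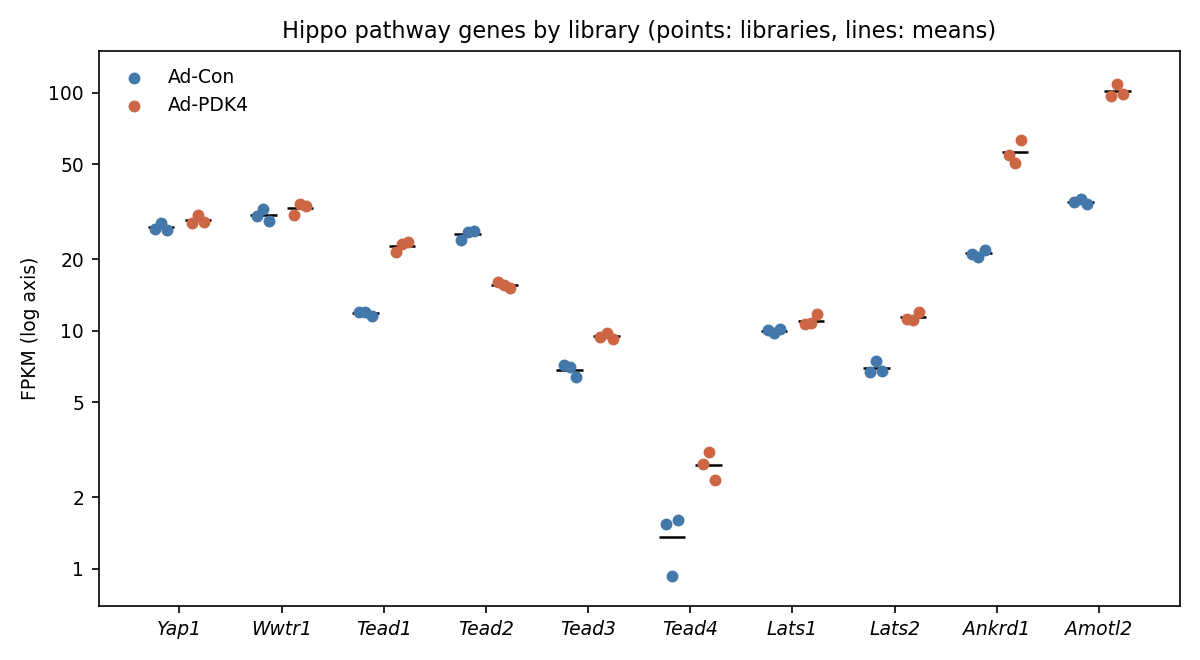
FPKM of the 10 members on a log axis, with 1 point per library, Ad-Con in blue and Ad-PDK4 in orange, and a line at each group mean. Amotl2, Ankrd1, Tead1, Tead3, Tead4 and Lats2 sit higher under the Ad-PDK4 label, Tead2 sits lower, and the points of Yap1 and Wwtr1 overlap between the groups.

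The abundance of the members spanned a wide range within a library. In the Ad-Con libraries Amotl2 was the highest, at 34.8 ± 0.795 FPKM, followed by Wwtr1, Yap1, Tead2, Ankrd1, Tead1, Lats1, Lats2, Tead3 and Tead4, the last at 1.36 ± 0.372. Lats2 and Tead3 were neighbors in this order whose libraries overlapped. Under the Ad-PDK4 label the order was Amotl2, Ankrd1, Wwtr1, Yap1, Tead1, Tead2, Lats2, Lats1, Tead3 and Tead4, and there Lats2 and Lats1 overlapped. Measured by its mean over all libraries, Amotl2 stood at the 94.6th percentile of the genes tested, Ankrd1 at 89.3, Wwtr1 at 86.9 and Yap1 at 85.3, while Tead4 stood at 22.3.

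The promoters of the members were read from the RefSeq promoter table (GRCm38.p6), which gives 250 bases before and 50 after each annotated start. It matched 8 of the 10 members with 12 windows, Tead1 and Tead4 being the exceptions. The letters GGAATG, the core of the element that TEAD factors bind, were searched on both strands. They occurred in 8 of the 12 windows, from 6 of the 8 genes, where 14.7% of all 32817 windows in the table held them. The 2 windows of Wwtr1 overlap and share their match. The AP-1 element TGACTCA, bound by factors that often work beside TEADs, was in none of the 12 windows and in 5.20% of all windows. The members were chosen for their place in the pathway, and a match is a run of letters and not evidence of binding. A set of windows is shown because it holds both rising genes with the element and genes for which match and change differ. The letters in capitals are the matches, and CATTCC is GGAATG read on the other strand.
Ankrd1, chr19:36119795-36120094, minus strand: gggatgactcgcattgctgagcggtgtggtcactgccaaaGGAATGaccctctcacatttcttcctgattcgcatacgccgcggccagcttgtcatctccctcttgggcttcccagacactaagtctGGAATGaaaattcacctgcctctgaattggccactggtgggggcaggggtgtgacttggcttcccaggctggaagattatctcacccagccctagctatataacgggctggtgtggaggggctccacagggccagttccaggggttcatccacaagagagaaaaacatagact
Amotl2, chr9:102717554-102717853, plus strand: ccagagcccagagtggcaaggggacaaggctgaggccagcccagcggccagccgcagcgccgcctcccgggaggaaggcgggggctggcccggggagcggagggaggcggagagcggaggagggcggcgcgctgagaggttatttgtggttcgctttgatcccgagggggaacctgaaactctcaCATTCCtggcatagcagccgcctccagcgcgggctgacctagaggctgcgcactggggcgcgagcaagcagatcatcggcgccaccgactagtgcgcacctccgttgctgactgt
Lats2, chr14:57746074-57746373, minus strand: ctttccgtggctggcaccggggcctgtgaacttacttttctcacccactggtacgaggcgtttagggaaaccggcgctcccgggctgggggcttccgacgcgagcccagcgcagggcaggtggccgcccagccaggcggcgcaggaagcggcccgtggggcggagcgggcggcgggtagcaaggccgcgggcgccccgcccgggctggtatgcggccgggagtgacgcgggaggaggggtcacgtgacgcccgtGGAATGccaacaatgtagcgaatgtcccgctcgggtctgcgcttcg
Tead3, chr17:28350551-28350850, minus strand: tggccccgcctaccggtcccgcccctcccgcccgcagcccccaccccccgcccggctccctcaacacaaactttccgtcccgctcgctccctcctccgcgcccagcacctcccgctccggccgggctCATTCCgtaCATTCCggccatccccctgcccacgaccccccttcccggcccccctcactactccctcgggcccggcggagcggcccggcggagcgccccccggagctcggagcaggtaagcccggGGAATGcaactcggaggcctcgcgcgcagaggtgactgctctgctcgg
Wwtr1, chr3:57575861-57576160, minus strand: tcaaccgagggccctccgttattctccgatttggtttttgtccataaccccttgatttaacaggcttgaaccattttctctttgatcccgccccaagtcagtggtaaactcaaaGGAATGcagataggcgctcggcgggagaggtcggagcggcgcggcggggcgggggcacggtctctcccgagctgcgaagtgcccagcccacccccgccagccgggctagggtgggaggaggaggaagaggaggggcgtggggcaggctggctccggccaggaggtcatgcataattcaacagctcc
Tead2, chr7:45215542-45215841, plus strand: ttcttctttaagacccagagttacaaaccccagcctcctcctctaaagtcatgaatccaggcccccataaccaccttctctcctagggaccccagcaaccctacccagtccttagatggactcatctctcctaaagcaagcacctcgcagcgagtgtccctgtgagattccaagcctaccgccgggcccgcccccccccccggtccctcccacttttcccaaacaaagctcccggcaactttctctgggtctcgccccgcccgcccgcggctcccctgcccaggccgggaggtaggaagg

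Ankrd1 carried a pair of matches, beginning 210 and 123 bases before its start, and Amotl2 carried 1 on the other strand 65 bases before its start. That Amotl2 start lies 1132 bases downstream of the gene's start in the deposited table, so the match lies inside the gene as listed there. In Lats2 the match lay within the first bases of the transcript, from base 5. This start lies 12265 bases downstream of the gene's start in the deposited table, and the other Lats2 window held no match. Tead3 had 3 matches in the window shown, 1 in another window and none in the last. The start in the Tead3 window shown lies 217 bases downstream of the gene's start in the deposited table. The window of Wwtr1 held a match 136 bases before the start and that of Yap1 (chr9:8004547-8004846, minus strand) held 1 at 141 bases, although neither gene passed the test. Neither Tead2, which fell, nor Lats1, which did not pass, had a match. The letters were thus present beside genes with and without a call.

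The coactivators themselves were compared first. Yap1 (ENSMUSG00000053110, chromosome 9, 7931999 to 8004596, minus strand) is the founding coactivator of the pathway. It measured 26.6, 28.3 and 26.6 FPKM under Ad-Con and 28.3, 30.5 and 28.7 under the Ad-PDK4 label. The ranges of the groups overlapped, with a log2 fold change of 0.10 (95% interval -0.03 to 0.23, limma adjusted p = 0.17). The paralogue Wwtr1 (ENSMUSG00000027803, chromosome 3, 57455649 to 57575910, minus strand) encodes TAZ. Its values were 30.3, 32.4 and 28.9 FPKM against 30.6, 34.2 and 33.3. Again the libraries overlapped, and the log2 fold change was 0.10 (95% interval -0.05 to 0.25, limma adjusted p = 0.26). Between the groups, the balance of the pair differed by less than its spread: the log2 ratio of Wwtr1 to Yap1 was 0.168 ± 0.0416 under Ad-Con and 0.165 ± 0.0493 under the Ad-PDK4 label (n = 3, exact two-sided permutation test, p = 0.9).

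The 4 TEAD genes encode the DNA-binding partners of YAP and TAZ. Their paralogues recognize the same element and differ mainly in the tissues that express them. Here they differed in direction: Tead1, Tead3 and Tead4 rose while Tead2 fell. Tead1 (ENSMUSG00000055320, chromosome 7, 112679318 to 112906807, plus strand) is the TEAD known for binding muscle-type promoters. It measured 11.97, 11.97 and 11.56 FPKM under Ad-Con and 21.4, 23.2 and 23.7 under the Ad-PDK4 label. Every library labelled Ad-PDK4 was above every Ad-Con library, and the log2 difference was 0.94 (95% interval 0.80 to 1.07, limma adjusted p = 1.2e-05).

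Tead2 (ENSMUSG00000030796, chromosome 7, 45215753 to 45233644, plus strand) is best known from early embryonic and neural progenitor cells. It went from 24.1, 26.1 and 26.2 FPKM to 16.1, 15.6 and 15.1. All values labelled Ad-PDK4 lay below all Ad-Con values, and on the log2 scale Tead2 fell by 0.70 (95% interval -0.83 to -0.57, limma adjusted p = 4.8e-05). Tead2 overlaps 13 exonic bases of Cd37 on the other strand, a gene with at most 5 reads in any library.

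Tead3 (ENSMUSG00000002249, chromosome 17, 28331671 to 28350817, minus strand) was expressed at a lower level. Its libraries measured 7.16, 7.05 and 6.38 FPKM under Ad-Con and 9.37, 9.82 and 9.24 under the Ad-PDK4 label, with no overlap. The log2 difference was 0.46 (95% interval 0.30 to 0.62, limma adjusted p = 0.0012). Tead4 (ENSMUSG00000030353, chromosome 6, 128224288 to 128300823, minus strand), the paralogue known for its role in the trophectoderm, was the scarcest member. It had 113, 59 and 105 reads against 181, 194 and 187, or 1.54, 0.934 and 1.61 FPKM against 2.76, 3.08 and 2.35. Its libraries labelled Ad-PDK4 were all higher, and the log2 difference was 0.98 (95% interval 0.50 to 1.46, limma adjusted p = 0.0067). The coefficient of variation of Tead4 was 27.3% among the Ad-Con libraries, where counting error alone at its mean read number gives 10.4%, and Ad-Con replicate 2 was the low one. Tead3 and Tead4 share 1.71% and 1.92% of their longest transcripts with each other as exact 50-base runs.

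Because FPKM is scaled by gene length, the 4 paralogues were added up. The lengths used are those of merged exons, at 13570 bases for Tead1 and 6714 for Tead3. Their longest transcripts have 9964 and 3443 bases, so the sum and the shares depend on the annotation. The summed TEAD level was 45.5 ± 0.678 FPKM under Ad-Con and 50.6 ± 1.06 under the Ad-PDK4 label, a ratio of 1.11 (exact two-sided permutation test, p = 0.1, the smallest value that 3 against 3 libraries allow). The composition of this pool shifted by more than its total. Tead2 made up 55.9 ± 1.85% of it under Ad-Con and 30.8 ± 1.34% under the Ad-PDK4 label, a difference of -25.1 percentage points (exact two-sided permutation test, p = 0.1, again the smallest possible). The share of Tead1 went from 26.0 ± 0.738% to 45.0 ± 1.93%, so that Tead1 took the place of Tead2 as the most abundant paralogue in each of the 3 libraries labelled Ad-PDK4. Tead3 held 15.1 ± 1.05% and 18.7 ± 0.362%, and Tead4 2.998 ± 0.841% and 5.40 ± 0.663% (n = 3 per group).

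**Figure D2:**
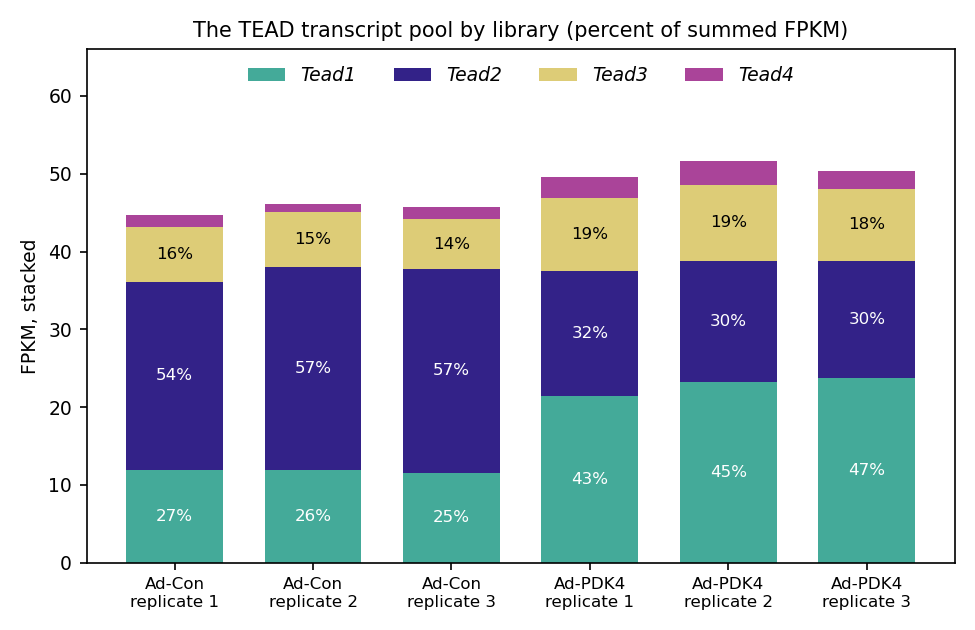
Stacked FPKM of Tead1 to Tead4 in each of the 6 libraries, with the percent of the summed level written in the larger segments. Tead2 is the largest segment in the 3 Ad-Con libraries and Tead1 in the 3 libraries labelled Ad-PDK4, while the height of the bars differs by a ratio of 1.11 between the group means.

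The LATS kinases phosphorylate YAP and TAZ directly. Lats1 (ENSMUSG00000040021, chromosome 10, 7681214 to 7716460, plus strand) measured 10.1, 9.79 and 10.2 FPKM under Ad-Con and 10.6, 10.7 and 11.7 under the Ad-PDK4 label. The groups did not overlap, yet the difference was small and did not pass, with a log2 fold change of 0.14 (95% interval -0.002 to 0.28, limma adjusted p = 0.10). With FPKM rescaled to TPM the same gene passed, at 0.18 (limma adjusted p = 0.049). Lats2 (ENSMUSG00000021959, chromosome 14, 57689662 to 57758388, minus strand) is both a kinase of the cascade and a target of YAP and TAZ. It measured 6.70, 7.45 and 6.80 FPKM against 11.2, 11.1 and 11.9, a log2 difference of 0.70 (95% interval 0.55 to 0.86, limma adjusted p = 0.00012). All 3 libraries labelled Ad-PDK4 exceeded all 3 Ad-Con libraries. The log2 ratio of Lats2 to Lats1 was -0.52 ± 0.111 under Ad-Con and 0.05 ± 0.0224 under the Ad-PDK4 label, which is a linear ratio of 0.697 and 1.035 in FPKM (exact two-sided permutation test, p = 0.1, the smallest possible). The annotated gene Gm49361 covers 42.4% of the exonic bases of Lats2 on the same strand and was listed at 0 reads in every library. How reads in the shared part were assigned is not stated, so the level of Lats2 is uncertain.

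Ankrd1 and Amotl2 had the largest changes among the members. Ankrd1 (ENSMUSG00000024803, chromosome 19, 36111965 to 36119844, minus strand) encodes a nuclear and sarcomeric ankyrin repeat protein studied mainly in the heart, and it is among the most used readouts of YAP and TAZ activity. It had 758, 635 and 696 reads under Ad-Con and 1754, 1558 and 2471 under the Ad-PDK4 label, or 21.1, 20.5 and 21.8 FPKM against 54.6, 50.4 and 63.4. The lowest library labelled Ad-PDK4 was more than double the highest Ad-Con library in FPKM, and the log2 difference was 1.40 (95% interval 1.21 to 1.59, limma adjusted p = 1.0e-05). The libraries labelled Ad-PDK4 varied by 11.8% around their mean, where counting error gives 2.28%, with replicate 3 the highest. Of the 4 cardiomyocyte markers, Myh6, Nppa and Actn2 had at most 3 reads in any library, while Tnnt2 had 82, 54 and 51 reads under Ad-Con and 10, 8 and 20 under the Ad-PDK4 label, lower where Ankrd1 was higher. The family members Ankrd2 and Ankrd23 stayed below the filter, at 1 to 9 and 6 to 33 reads per library. The deposited table gives Ankrd1 a length of 1765 bases, whereas its merged exons in GENCODE release 21 span 2886, which bears on its level and not on the comparison of groups.

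Amotl2 (ENSMUSG00000032531, chromosome 9, 102716672 to 102733418, plus strand) encodes an angiomotin that binds YAP and TAZ at cell junctions and is itself one of their targets. Its libraries measured 34.8, 35.7 and 34.1 FPKM under Ad-Con and 97.0, 109 and 98.9 under the Ad-PDK4 label. The groups were far apart, with a log2 difference of 1.54 (SE 0.06, 95% interval 1.41 to 1.67, limma adjusted p = 7.5e-07), the largest rise of the 10. The other angiomotins behaved differently. Amot fell by 0.30 on the log2 scale, from 5.61 ± 0.168 to 4.53 ± 0.0935 FPKM (limma adjusted p = 0.0075), and Amotl1 had 32.3 ± 0.909 against 33.5 ± 2.62 FPKM (0.05 on the log2 scale, limma adjusted p = 0.57). Whether these changes differ from that of Amotl2 was not tested by a contrast between genes.

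The remaining genes of a published signature of YAP and TAZ targets were then compared. The members were left out, and so was Ptpn14, which was counted in the list of the kinase cassette and its activators. All 18 were expressed and tested. At an adjusted p below 0.05, 8 were higher and 2 lower (21.8% and 20.8% of all genes tested), and the median log2 fold change of the list was 0.13. The remaining 8 did not pass. The called genes of this list thus differed in direction. The highest values were in Igfbp3, a binding protein for insulin-like growth factors (2.41 ± 0.404 to 6.51 ± 0.424 FPKM, log2 fold change 1.41), Crim1, a membrane regulator of bone morphogenetic proteins (37.7 ± 2.99 to 89.6 ± 5.19 FPKM, 1.25), and Nuak2, a kinase that promotes actomyosin contraction (2.38 ± 0.171 to 4.88 ± 0.598 FPKM, 1.002). Their limma adjusted p were 7.7e-05, 8.0e-06 and 0.00026. The calls lower were Gadd45a, a stress-induced growth arrest gene, at 128 ± 4.18 against 72.2 ± 1.76 FPKM (-0.82 on the log2 scale, limma adjusted p = 8.1e-06), and the matrix gene Ccdc80, at 104 ± 10.1 against 87.1 ± 2.74 FPKM (-0.26, limma adjusted p = 0.022). Ccdc80 lost its call without Ad-PDK4 replicate 1 (-0.23). Ptpn14, left out above, was called higher, at 20.8 ± 0.417 against 27.1 ± 1.82 FPKM (0.38 on the log2 scale, limma adjusted p = 0.0018). So were Ankrd1, Amotl2 and Lats2, the targets among the members.

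The classical targets of the pathway, which encode secreted matricellular proteins, split. Ccn1 (listed as Cyr61) measured 94.5, 86.1 and 112 FPKM under Ad-Con and 92.1, 98.6 and 96.2 under the Ad-PDK4 label. The libraries overlapped fully, with a log2 fold change of -0.02 (95% interval -0.23 to 0.19, limma adjusted p = 0.89), whose sign turned under the TPM scaling. Its promoter (chr3:145649936-145650235, minus strand) holds the TEAD letters 103 bases before the start. Among the 11 signature genes with a window, 3 of 12 windows held these letters, those of Ccn1, Axl and Crim1. Ccn2 (listed as Ctgf) measured 16.4, 16.4 and 17.8 FPKM against 23.8, 25.6 and 22.2, without overlap, and rose by 0.50 on the log2 scale (SE 0.07, limma adjusted p = 0.00078).

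Beyond YAP and TAZ, TEADs also bind the Vestigial-like proteins, which use the same surface. Vgll3 rose from 13.9, 13.3 and 13.6 FPKM to 40.9, 41.4 and 43.6, a log2 difference of 1.62 (SE 0.05, limma adjusted p = 3.4e-07), which exceeds that of every member. Vgll4, a repressor that competes with YAP for TEADs, rose by 0.28 (limma adjusted p = 0.011), from 10.9 ± 0.209 to 13.3 ± 0.977 FPKM. Vgll1 had 0 reads in every library, and a count of 0 leaves room for up to 3. Vgll2 had at most 2 reads. Both tested genes of the 4 in this family were therefore higher, where 21.8% of all genes tested were.

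The list of the kinase cassette and its activators holds genes that are not upstream of LATS, among them the LATS cofactors Mob1a and Mob1b. All 21 of its genes were tested. At an adjusted p below 0.05, 10 were higher and 2 lower, where 21.8% and 20.8% of all genes tested were called, with log2 fold changes from 0.22 to 0.86 and from -1.05 to -0.30, and the list's median was 0.15. In the core cassette, Stk4 (0.45, limma adjusted p = 0.0020) and the scaffold Sav1 (0.33, limma adjusted p = 0.0027) rose. The partner kinase Stk3, at -0.14 (limma adjusted p = 0.42), and the LATS cofactors Mob1a, at 0.15 (limma adjusted p = 0.16), and Mob1b, at -0.05 (limma adjusted p = 0.76), did not pass. Stk3 and Mob1b changed sign in fits without Ad-PDK4 replicate 2.

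Among the other genes of the list, Nf2 (Merlin), an activator at the membrane, rose by 0.30 (limma adjusted p = 0.0043), from 18.7 ± 0.881 to 22.9 ± 0.823 FPKM. Wwc1 (KIBRA), which joins Merlin in activating LATS, had the largest rise of the list, from 7.62 ± 0.406 to 13.9 ± 0.896 FPKM (0.86, limma adjusted p = 5.6e-05). The kinase Map4k3 rose by 0.63 and the adaptor Rassf1 by 0.50 (limma adjusted p = 0.00028 and 0.00072). The protocadherin Dchs1, a ligand of Fat4 at cell contacts, fell from 1.34, 1.78 and 1.42 FPKM to 0.622, 0.848 and 0.582, without overlap (-1.05, limma adjusted p = 0.0041). With a pseudocount of 1 its log2 fold change was -0.58, past the threshold as well.

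Of 9 genes that restrain the cassette, 3 were higher and the other 6 did not pass, with a list median of 0.11. With 21.8% of all genes tested called higher, a count of 3 among 9 is not far from the background. Ajuba, a LIM protein that binds and inhibits LATS, rose from 22.9, 23.8 and 23.7 FPKM to 51.2, 58.1 and 48.9, a log2 difference of 1.16 (SE 0.07, limma adjusted p = 1.0e-05). Strn3 and Slmap, parts of the phosphatase complex that acts on STK3 and STK4, rose by 0.35 and 0.23 (limma adjusted p = 0.0083 and 0.0081). The related LIM gene Limd1 did not pass (-0.13, limma adjusted p = 0.16).

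**Figure D3:**
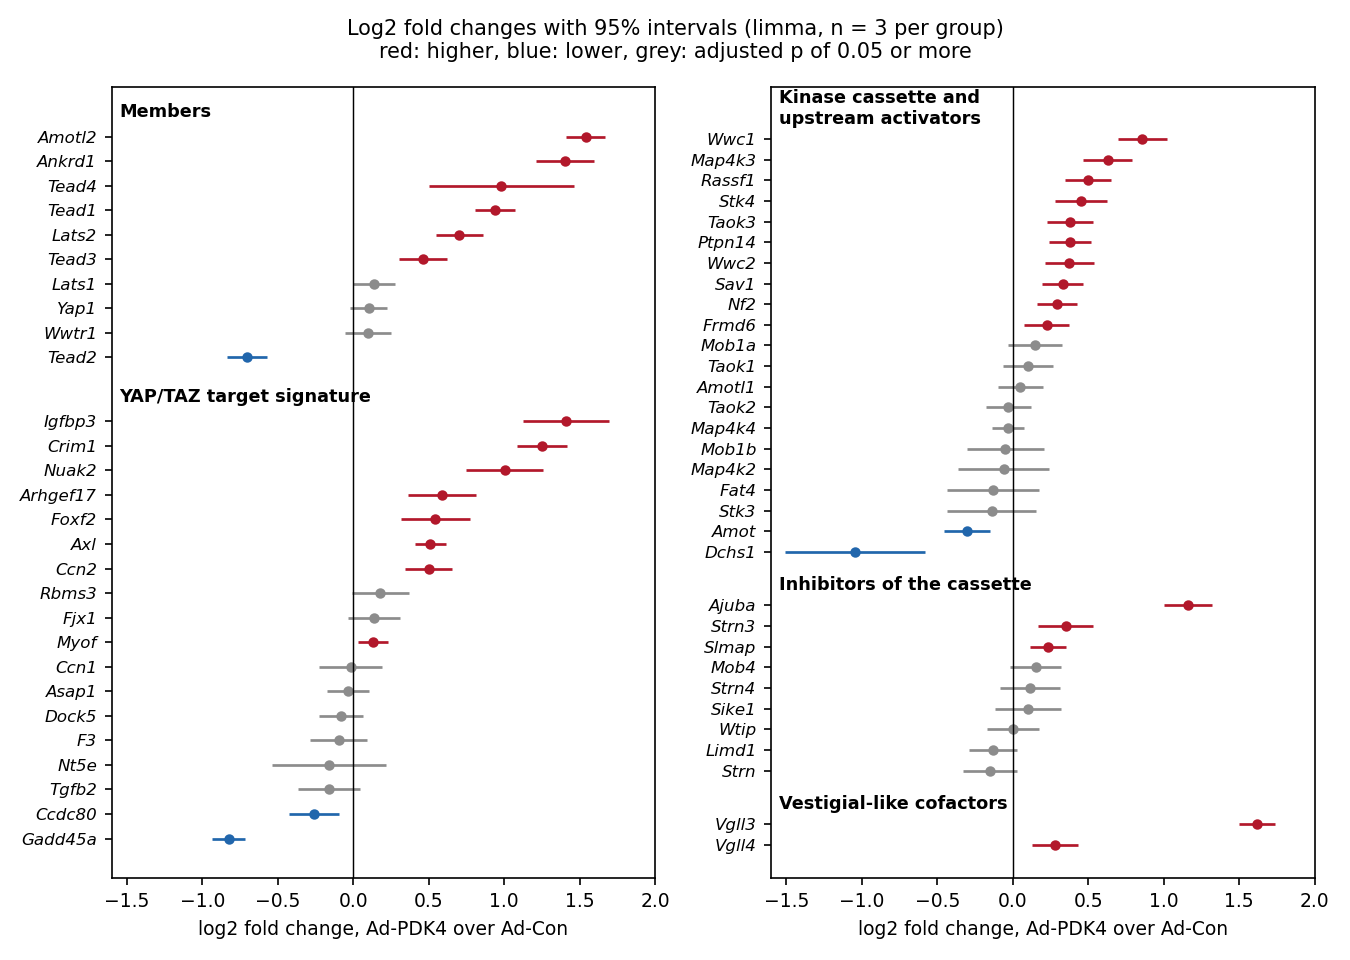
Log2 fold changes of Ad-PDK4 over Ad-Con with 95% intervals from limma for the members, the target signature and the lists of activators, inhibitors and Vestigial-like cofactors (n = 3 per group). Red points are called higher, blue points lower and grey points did not pass an adjusted p of 0.05. Vgll3 at 1.62, Amotl2 at 1.54, Igfbp3 at 1.41, Ankrd1 at 1.40, Crim1 at 1.25 and Ajuba at 1.16 lie far to the right. Dchs1 at -1.05 lies farthest to the left, and Ccn1, Yap1 and Wwtr1 lie near 0.

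The spread between libraries of a group was small for most members, next to these differences. The coefficient of variation in FPKM ranged from 1.96% (Lats1) to 27.3% (Tead4) under Ad-Con and from 3.01% (Tead2) to 13.4% (Tead4) under the Ad-PDK4 label. Yap1 varied by 3.65% and 4.14% and Wwtr1 by 5.80% and 5.68%, where counting error at their depth gives between 1.39% and 1.92%. For Lats1 and Ankrd1 under Ad-Con the spread was below the counting error of 2.71% and 3.79%. Reads without molecular identifiers are not independent molecules, so these figures for counting error are lower limits.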

How the data were processed

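Total RNA of 6 samples was sequenced as paired-end libraries. The deposited table holds FPKM values that the authors made for each gene in each library, replicates unpooled. The submitters' processing notes name CASAVA 1.8, fastp, HISAT2 2.0.5, featureCounts 1.5.0-p3 and DESeq2 1.20.0, and GRCm39 as the build. However, 98.3% of the 54409 identifiers shared with GENCODE mouse release 21 had its GRCm38 coordinates, so GRCm38 is used here. The annotation release and the strand setting were not stated. FPKM times the deposited gene length gave whole reads for 100% of non-zero values (tolerance 0.01 reads). The library size implied by the authors' scaling was 17501102 to 22088287.

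log2(FPKM + 0.1) was compared between Ad-PDK4 and Ad-Con with limma 3.58.1 (R 4.3.3), empirical Bayes with trend and robust, over the 13423 genes that averaged 0.5 FPKM or more. Genes were called at a Benjamini-Hochberg adjusted p below 0.05. The script was tested on simulated data first. Ratios and shares were compared by exact two-sided permutation tests over 20 arrangements (scipy 1.17.1). The 16 alternatives were pseudocounts, filters, scalings, moderation, a replicate block, limma-voom on recovered reads and leaving out each library. Replicates did not agree within sampling noise (chi-square per degree of freedom 4.35 to 12.7 within groups).

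The members, gene lists and tests were chosen with earlier results of these data known. The text names all members, Pdk4, Ccn1, Ccn2 and in each pathway list up to 3 called genes a direction, taken by size of change, or every gene of a list of 5 or fewer. Stk3, Stk4, Sav1, Mob1a, Mob1b, Nf2, Amotl1, Ptpn14, Limd1, Axl and the marker genes are named outside this rule, after their values were seen.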

Additional observations from a re-analysis of the deposited data

How the results depend on the processing

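Of the 159 alternative fits of single members, 158 kept the direction and the side of the threshold, the exception being Lats1 under the TPM scaling. The number of members called higher ranged from 5 (mean FPKM of at least 5, where Tead4 dropped out) to 7 (TPM), and was 6 in every fit that left out a library. Members past a fold of 2 numbered 2 or 3, Tead4 (0.67 with a pseudocount of 1 to 1.11) being the third. The replicate numbers did not pair the libraries (correlations of same-numbered deviations -0.046, -0.0311 and -0.0013). With the replicate block 6 members were called higher, 1 lower and 2 past a fold of 2, and Tead4 had an adjusted p of 0.021.

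Over all genes, the calls with a fold of at least 2 fell from 530 to 258 higher and from 360 to 114 lower at a mean FPKM of at least 5, where fewer genes were tested, and to 153 lower with a pseudocount of 1. At the filter of 5 FPKM, 1 gene of the kinase cassette list was called lower in place of 2, since Dchs1 was not tested. Signature genes called lower went from 2 to 1 without trend or robust and ranged from 1 to 3 over the fits leaving out a library (the 1 without Ad-PDK4 replicate 1, the cause not tested), and inhibitors called lower from 0 to 1 (the 1 without Ad-Con replicate 3). The group difference in the log2 ratio of Wwtr1 to Yap1, at -0.003, ranged from -0.028 to 0.0214 when a library was left out and was above 0 without Ad-Con replicate 1 (0.00744), Ad-Con replicate 2 (0.0106) or Ad-PDK4 replicate 1 (0.0214). Ccn1 was above 0 under TPM (0.0225) and ranged from -0.103 to 0.0838 when a library was left out, being above 0 without the Ad-Con replicate 3 or the Ad-PDK4 replicate 1 (0.0081). Stk3 ranged from -0.248 to 0.0037 and Mob1b from -0.1415 to 0.025, both above 0 without Ad-PDK4 replicate 2, and Mob1b also without Ad-Con replicate 3 (0.0058). The cause of these turns was not tested, and none of these genes was called in any of them. With 3 libraries a group, the exact tests cannot go below p = 0.1, or 0.25 with the block.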
